A study of Mus musculus with 12 samples.

Results

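The mRNA levels of 10 genes of de novo fatty acid synthesis were compared in liver tumors and livers of mice: Acly, Acaca, Fasn, Elovl6, Scd1, Scd2, Me1, Srebf1, Thrsp and Pnpla3. They were taken by symbol, with the longest transcript per symbol, out of 19012 gene symbols in 12 RNA sequencing libraries. All 10 had 1 transcript each, and all 10 had values high enough to be tested. In liver the pathway turns citrate that leaves the mitochondrion into palmitate, and then into longer and monounsaturated fatty acids that are stored or exported as triglyceride. Its genes are known to be switched on together after feeding by the transcription factors SREBP-1c, LXR and ChREBP, and to be low in fasting. High expression of the pathway is a familiar feature of many liver tumors.

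The groups were 4 liver tumors from double knockout (DKO) mice without functional E2f7 and E2f8, 4 livers of DKO mice and 4 wild-type livers. E2f7 and E2f8 encode the atypical E2F proteins, which repress transcription of cell cycle genes. The way the alleles were deleted, strain, age, sex, diet and feeding state are not given in the sources used here. By the animal codes in the deposited names, DKO tumor and DKO liver of the same replicate number came from 1 animal, so every DKO liver came from an animal with a tumor, and effects of the genotype and of the tumor on these livers cannot be told apart. The 4 wild-type codes were of other animals.

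Levels are given in RPKM, which divides reads by exon length in kb and by library depth in M (mega) reads. Depth was 7.985 to 15.956 M reads, so that a single read on 2 kb of exon adds 0.0313 to 0.0626 RPKM, and without molecular identifiers it tells of counting error alone. E2f7 was at 0.0365 to 0.259 RPKM in DKO tumors, 0.211 to 0.4 RPKM in DKO livers and 0.103 to 0.2 RPKM in wild-type livers. E2f8 was at 1.66 to 12.2 RPKM in DKO tumors, 2.8 to 20.8 RPKM in DKO livers and 1.66 to 4.3 RPKM in wild-type livers. RPKM sums all exons and the deleted part is not given, and these levels therefore cannot test the genotype, so the groups are named as labelled. The hepatocyte markers Alb, Apoa1, Ttr, Serpina1a and Hnf4a summed to at least 35500 RPKM in every library.

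Names of the deposited data also carry a tag of unstated meaning. It is L03 for all DKO tumors and for wild-type livers 3 and 4, and L02 for all DKO livers and for wild-type livers 1 and 2. Tag and group cannot be told apart between DKO tumors and DKO livers, and values within 1 tag are given for the other comparisons. In whole tissue, fewer cells of a type and less RNA per cell cannot be told apart.

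Promoter sequence was available for 8 of the 10 genes, in 11 promoters of 250 bases before to 50 after a start site (RefSeq, GRCm38.p6), and not for Scd1 and Scd2. These windows were searched on both strands for CCAAT, the letters of the NF-Y box that often stands beside SREBP sites, for the E-box CACGTG, and for TCACNCCAC, letters of a sterol regulatory element. CCAAT was found in 6 of the 8 genes, or 7 of the 11 promoters, against 37.4% of all 32851 promoters in the table. CACGTG was found in 0 of the 11 promoters, against 7.15% of all, and TCACNCCAC in 0 of 11, against 1.24%. A match describes the letters only, and no match says only that these letters are not in the window. The 250 bases before the start are shown for Fasn, whose level ran closest to that of the other members, for Pnpla3, whose DKO tumors lay above the wild-type livers, and for Thrsp, which had the most negative difference in DKO tumors against wild-type livers. Capitals mark CCAAT on either strand (ATTGG on the reverse strand, with an overlap in Fasn), and sequences are 5′ to 3′ in the direction of the gene. They lie at chr11:120824548-120824797 (minus strand) for Fasn, chr15:84167566-84167815 (plus strand) for Pnpla3 and chr7:97417551-97417800 (minus strand) for Thrsp.
Fasn: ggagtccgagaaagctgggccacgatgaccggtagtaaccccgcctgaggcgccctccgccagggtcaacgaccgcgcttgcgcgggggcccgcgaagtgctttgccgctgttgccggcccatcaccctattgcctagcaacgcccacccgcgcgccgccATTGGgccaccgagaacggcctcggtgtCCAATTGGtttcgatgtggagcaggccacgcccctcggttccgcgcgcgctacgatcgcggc
Pnpla3: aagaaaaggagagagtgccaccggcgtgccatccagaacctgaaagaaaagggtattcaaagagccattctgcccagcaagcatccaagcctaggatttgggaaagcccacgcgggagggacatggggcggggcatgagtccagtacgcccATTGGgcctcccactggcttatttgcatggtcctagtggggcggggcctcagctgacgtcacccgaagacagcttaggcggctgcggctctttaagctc
Thrsp: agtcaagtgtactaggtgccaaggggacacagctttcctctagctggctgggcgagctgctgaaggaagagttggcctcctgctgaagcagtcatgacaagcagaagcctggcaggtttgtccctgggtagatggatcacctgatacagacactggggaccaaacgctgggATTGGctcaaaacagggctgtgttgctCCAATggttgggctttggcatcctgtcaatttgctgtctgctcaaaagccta
The matches start 90, 62 and 59 bases before the start site in Fasn, 99 bases before it in Pnpla3, and 79 and 52 bases before it in Thrsp. The bases just after the Pnpla3 start were not found near the beginning of a GENCODE transcript of that gene, unlike those of Fasn and Thrsp. The Pnpla3 start and the distance from it are therefore less certain, and the same holds for some Srebf1 starts among the 11 promoters.

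The largest difference among the 10 genes was that of the second stearoyl-CoA desaturase. Scd2 (mm9 chromosome 19, 44368577 to 44381349) encodes a desaturase that puts the first double bond into saturated fatty acids and is best known from brain and from the liver of newborn mice. Its level was 27.2, 50.4, 15.4 and 164.4 RPKM in DKO tumors 1 to 4, 7.09, 9.16, 9.34 and 4.47 RPKM in DKO livers 1 to 4, and 2.54, 4.71, 8.83 and 5.33 RPKM in wild-type livers 1 to 4. Every DKO tumor lay above every liver of both other groups, and the DKO livers overlapped with the wild-type livers. DKO tumor 4 held over 3 times the level of the next tumor, and the means were 64.4 ± 68.3 RPKM in DKO tumors, 7.52 ± 2.27 RPKM in DKO livers and 5.35 ± 2.61 RPKM in wild-type livers (SD, n = 4 each).

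Scd2 rose in DKO tumors against wild-type livers, by 2.90 on the scale of log2(RPKM + 1) that all fits use (SE 0.57, 95% interval 1.65 to 4.15, limma adjusted p = 0.0296). It was the 1 member of 10 called at an adjusted p under 0.05 in this comparison, where 1.23% of 11352 tested genes were called higher and 1.9% in either direction. The call rested on several libraries. It was lost without DKO tumor 1 (adjusted p = 0.0575), DKO tumor 2 (0.0953) or wild-type liver 1, 2 or 4 (0.11, 0.0678 and 0.0962), while the difference stayed between 2.27 and 3.38 over 23 other settings, 13 of which called it. Within tag L03, 4 tumors against 2 wild-type livers gave 2.50 (limma adjusted p = 0.478). The tag as a covariate gave the same 2.50 (0.274), since with all tumors in L03 its estimate rests on the same libraries. Without DKO tumor 4, the highest library, the difference was 2.27 and the call held (adjusted p = 0.0304).

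Against DKO livers, Scd2 differed in DKO tumors by 2.43 (SE 0.57, 95% interval 1.18 to 3.68), which did not pass (limma adjusted p = 0.0876). In this comparison 0 of 10 members were called and 0.00881% of tested genes were, while 1 member of 10 had every tumor above every DKO liver, as had 2.12% of tested genes. The tumor exceeded the liver of the same animal by 1.80, 2.34, 0.67 and 4.92 in animals 1 to 4. DKO tumor 3 stood nearest to its liver, and the fit without it (2.91, limma adjusted p = 0.0217) was the 1 of 22 other settings that called Scd2. Over those settings the difference was 1.60 to 2.91 and adjusted p 0.0217 to 1.0, with 1.60 (0.0959) without DKO animal 4. The tag as a covariate gave 1.62 (1.0). Tag and group coincide in these 2 groups, so that value rests on a tag effect taken from the wild-type livers alone. In DKO livers against wild-type livers Scd2 differed by 0.47 (95% interval -0.78 to 1.72, limma adjusted p = 0.75), and by 0.88 within tag L02 (0.849).

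Scd1 (mm9 chromosome 19, 44468944 to 44482042) encodes the main desaturase of adult liver and lies in the same gene cluster as Scd2. It had the highest mean RPKM of the 10 over all 12 libraries, while Thrsp was higher in the mean of the wild-type livers. Its level was 1009, 1704, 1159 and 1830 RPKM in DKO tumors, 381, 1392, 948 and 1102 RPKM in DKO livers, and 492, 1239, 495 and 767 RPKM in wild-type livers. DKO liver 1 was the lowest library and DKO tumor 4 the highest, and the groups overlapped. The difference was 0.99 (SE 0.41) in DKO tumors against wild-type livers, which did not pass (limma adjusted p = 0.204), 0.68 in DKO tumors against DKO livers (0.429) and 0.31 in DKO livers against wild-type livers (0.768). Within animals Scd1 was higher in the tumor in 4 of 4, by 0.29 to 1.40. Within tag L03 the tumors differed from wild-type livers by 1.16 (0.361).

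The balance between both desaturases was followed as the share of Scd2 in the sum of Scd1 and Scd2 RPKM. That share was 2.62, 2.87, 1.31 and 8.25% in DKO tumors, 1.83, 0.654, 0.976 and 0.404% in DKO livers, and 0.513, 0.379, 1.75 and 0.69% in wild-type livers. The means were 3.76 ± 3.07% in DKO tumors, 0.966 ± 0.621% in DKO livers and 0.834 ± 0.626% in wild-type livers (SD, n = 4 each). DKO tumor 3 fell among the livers, and the other tumors lay above all 8 of them. DKO tumors differed from wild-type livers by 2.93 percentage points (two-sided exact permutation p = 0.0571, adjusted over 3 comparisons 0.0857) and from DKO livers by 2.80 (exact permutation p = 0.0571, adjusted 0.0857), where 4 against 4 libraries cannot give p below 0.0286. DKO tumor 4 carried much of this, since without it the differences were 1.44 points from wild-type livers and 1.30 from DKO livers (exact permutation, adjusted p = 0.171 each). DKO livers and wild-type livers differed by 0.132 points (exact permutation p = 0.686). Of the stretches of 35 bases in the longest Scd2 transcript (GENCODE M21), 4.13% are also in Scd1, and 2.68% of those of 50 bases. In the longest transcript of Scd1, the more abundant gene, 4.67% of the stretches of 35 bases and 3.03% of those of 50 are also in Scd2. Low Scd2 values are uncertain, since read length and the treatment of reads that match both genes are not given in the sources used here. The lowest share of Scd2 in any library was 0.379%, in wild-type liver 2.

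**Figure D1:**
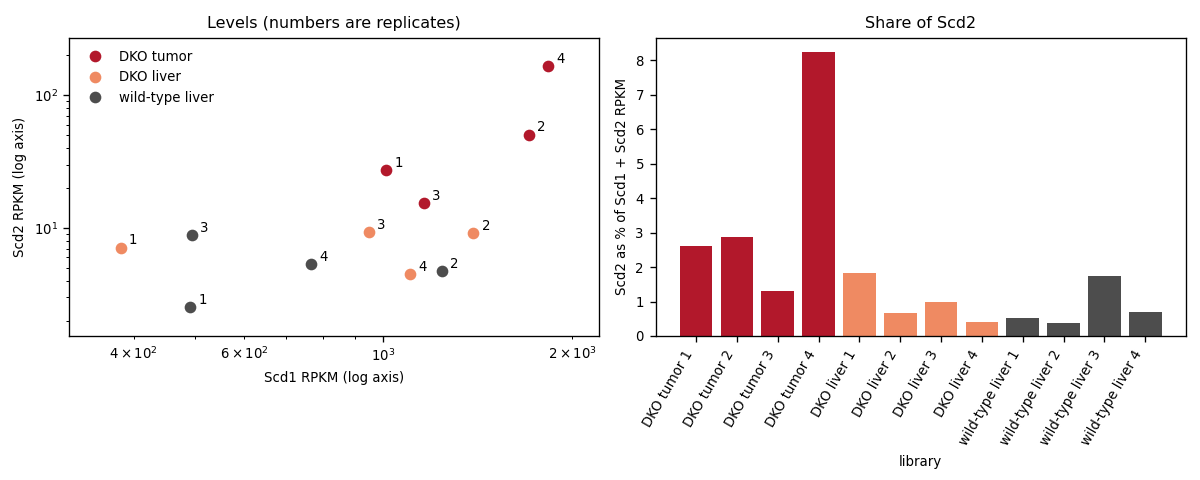
Left: Scd2 against Scd1 in RPKM on log axes, 1 point per library, numbered by replicate and coloured by group. Right: bars of Scd2 as a percentage of the summed RPKM in each library, with DKO tumor 4 highest at 8.25% and DKO tumor 3 at 1.31%.

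Enzymes that build the fatty acid were next. Acly makes cytosolic acetyl-CoA from citrate, Acaca carboxylates it to malonyl-CoA, Fasn joins these units to palmitate, and Elovl6 lengthens palmitate to stearate. All 4 had positive log2 differences in DKO tumors against wild-type livers, and 0 of the 4 passed.

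Acaca, the rate-limiting step, was at 5.21, 6.36, 5.74 and 7.01 RPKM in DKO tumors, 1.14, 4.09, 4.02 and 6.12 RPKM in DKO livers, and 1.73, 3.77, 4.85 and 2.71 RPKM in wild-type livers. All tumors were above all wild-type livers, with a spread of 1.35-fold among tumors against 5.35-fold among DKO livers and 2.80-fold among wild-type livers. The difference was 0.78 (SE 0.32, 95% interval 0.09 to 1.47), which did not pass (limma adjusted p = 0.204), and 0.60 within tag L03 (0.448). Acaca was 1 of 3 members, with Scd2 and Pnpla3, whose tumors all lay above the wild-type livers. That was so for 5.57% of tested genes.

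Acly was at 63.1, 102, 88.9 and 86.1 RPKM in DKO tumors, 28.2, 100.4, 82.8 and 114 RPKM in DKO livers, and 27.7, 67.0, 67.9 and 48.7 RPKM in wild-type livers. Replicate 1 was the lowest library of each group, and the groups overlapped. Differences from wild-type livers were 0.74 in DKO tumors (SE 0.40, limma adjusted p = 0.338) and 0.52 in DKO livers (SE 0.40, 0.592), and DKO tumors and DKO livers differed by 0.21 (0.828).

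Fasn was at 38.1, 56.3, 59.8 and 125.5 RPKM in DKO tumors, 9.50, 49.2, 58.5 and 118 RPKM in DKO livers, and 18.5, 61.3, 59.6 and 28.3 RPKM in wild-type livers. Tumor and liver of animal 4 held the highest values of all 12 libraries, and DKO liver 1 the lowest. Groups overlapped in all 3 comparisons, with 0.75 (SE 0.65) for DKO tumors against wild-type livers, 0.55 for DKO tumors against DKO livers and 0.20 for DKO livers against wild-type livers (limma adjusted p = 0.584, 0.717 and 0.916). Fasn was higher in the tumor than in the liver of the same animal in 4 of 4, but by only 0.03 to 0.19 in animals 2 to 4, against 1.90 in animal 1. Without DKO liver 1 its sign turned, to -0.14.

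Elovl6 was at 9.61, 21.2, 19.6 and 40.0 RPKM in DKO tumors, 1.64, 13.5, 18.0 and 17.6 RPKM in DKO livers, and 7.28, 18.6, 18.8 and 7.85 RPKM in wild-type livers. DKO tumor 4 was again the highest library and DKO liver 1 the lowest. Differences were 0.70 for DKO tumors against wild-type livers (SE 0.61, limma adjusted p = 0.585), 0.97 for DKO tumors against DKO livers (0.455) and -0.27 for DKO livers against wild-type livers (0.879). Acaca and Elovl6 were both higher in the tumor than in the liver of the same animal in 4 of 4 animals.

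**Figure D2:**
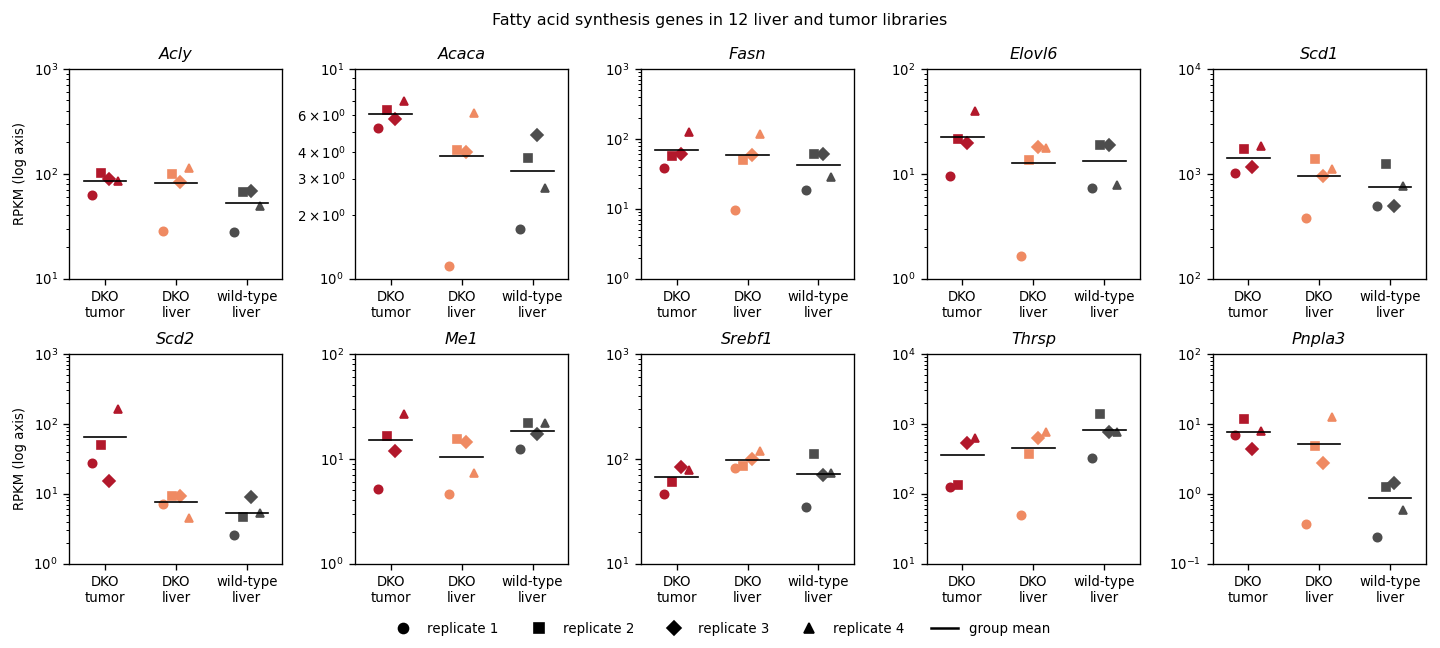
RPKM of the 10 genes on log axes in DKO tumors, DKO livers and wild-type livers, with 1 marker per library, shaped by replicate, and a line at the group mean (n = 4). All 4 tumors are above all wild-type livers for Acaca, Scd2 and Pnpla3, and replicate 1 is the lowest wild-type liver for all 10 genes.

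Pnpla3 (mm9 chromosome 15, 83998245 to 84019950) encodes a protein of lipid droplets that is a target of SREBP-1c, and a human coding variant of it is tied to fatty liver disease. It was at 6.79, 11.7, 4.35 and 7.82 RPKM in DKO tumors, 0.374, 4.74, 2.72 and 12.4 RPKM in DKO livers, and 0.242, 1.23, 1.43 and 0.589 RPKM in wild-type livers, where the values rest on 9, 73, 79 and 39 reads. All tumors and 3 of 4 DKO livers were above every wild-type liver, and DKO liver 1 lay among the wild-type livers. The means were 7.67 ± 3.06 RPKM in DKO tumors, 5.07 ± 5.24 RPKM in DKO livers and 0.872 ± 0.551 RPKM in wild-type livers (SD, n = 4 each).

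Pnpla3 differed between DKO tumors and wild-type livers by 2.19 (SE 0.55, 95% interval 1.0 to 3.38), just outside the threshold (limma adjusted p = 0.063). It passed in 6 of 23 other settings, among them the 8 libraries of the comparison alone (adjusted p = 0.00416) and the fit without DKO liver 1 (0.0229), over a range of 1.99 to 3.22 and of adjusted p from 0.00416 to 0.356. Within tag L03 the difference was 2.07 (limma adjusted p = 0.0525). For DKO livers against wild-type livers it was 1.30 (SE 0.55, 95% interval 0.11 to 2.49, limma adjusted p = 0.383), and 1.42 within tag L02 (0.849). It was the member with the most positive difference in that comparison, in which limma called 0 of the 10 members and 0.0% of all tested genes. At an unadjusted p under 0.05 the counts were 1 member and 12.4% of tested genes, and groups without overlap occurred for 0 of 10 members and 7.58% of tested genes. Tumor exceeded liver by 2.50, 1.15 and 0.52 in animals 1 to 3, and in animal 4 the tumor was lower, by -0.61 (0.89 over all, limma adjusted p = 0.442).

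The 3 remaining genes had differences of the other sign, or near 0, in DKO tumors against wild-type livers. Thrsp encodes Spot 14, a small nuclear and cytosolic protein induced by thyroid hormone and carbohydrate that promotes lipogenesis. It was at 125, 132, 535 and 624 RPKM in DKO tumors, 48.9, 366, 621 and 753 RPKM in DKO livers, and 323, 1363, 752 and 765 RPKM in wild-type livers. In both DKO tissues animals 1 and 2 were below animals 3 and 4, and wild-type liver 2 was the highest library. The differences from wild-type livers were -1.37 in DKO tumors (SE 0.84, 95% interval -3.19 to 0.44, limma adjusted p = 0.40) and -1.22 in DKO livers (SE 0.84, 95% interval -3.04 to 0.60, 0.546). Those intervals are wide enough to take in both a large decrease and no change. Thrsp was higher in the tumor than in the liver in 1 of 4 animals, with -0.15 over all (0.951).

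Me1 encodes malic enzyme, which supplies NADPH for the synthesis. It was at 5.10, 16.5, 11.8 and 26.9 RPKM in DKO tumors, 4.65, 15.5, 14.5 and 7.25 RPKM in DKO livers, and 12.5, 22.0, 17.0 and 21.9 RPKM in wild-type livers. The lowest values were those of tumor and liver of animal 1, and the groups overlapped. The differences were -0.44 for DKO tumors and -0.86 for DKO livers against wild-type livers (SE 0.44 each, limma adjusted p = 0.653 and 0.448), and 0.42 for DKO tumors against DKO livers (0.681).

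Srebf1 encodes SREBP-1, the transcription factor that induces the pathway after insulin. It was at 46.6, 59.8, 83.8 and 77.9 RPKM in DKO tumors, 81.2, 85.0, 98.8 and 119.6 RPKM in DKO livers, and 34.6, 110.2, 70.5 and 72.6 RPKM in wild-type livers. It was lower in the tumor than in the liver of the same animal in 4 of 4, by -0.79, -0.50, -0.24 and -0.61. Acaca, Fasn, Scd1, Scd2 and Elovl6 were higher in 4 of 4. Such counts within animals, here and above, were made for the 10 members only, so no share over all genes stands beside them. Between the groups, 37.2% of all tested genes had a positive difference in DKO tumors against DKO livers, so a negative one was the more common. The Srebf1 difference between DKO tumors and DKO livers was -0.53 (SE 0.30, 95% interval -1.18 to 0.12), which did not pass (limma adjusted p = 0.406). It was 0.51 for DKO livers against wild-type livers (0.491) and -0.03 for DKO tumors against wild-type livers (0.976), where its sign turned in 6 of 23 other settings. The RPKM of the gene does not tell the SREBP-1a and SREBP-1c transcripts apart, nor does it measure the processed protein.

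**Figure D3:**
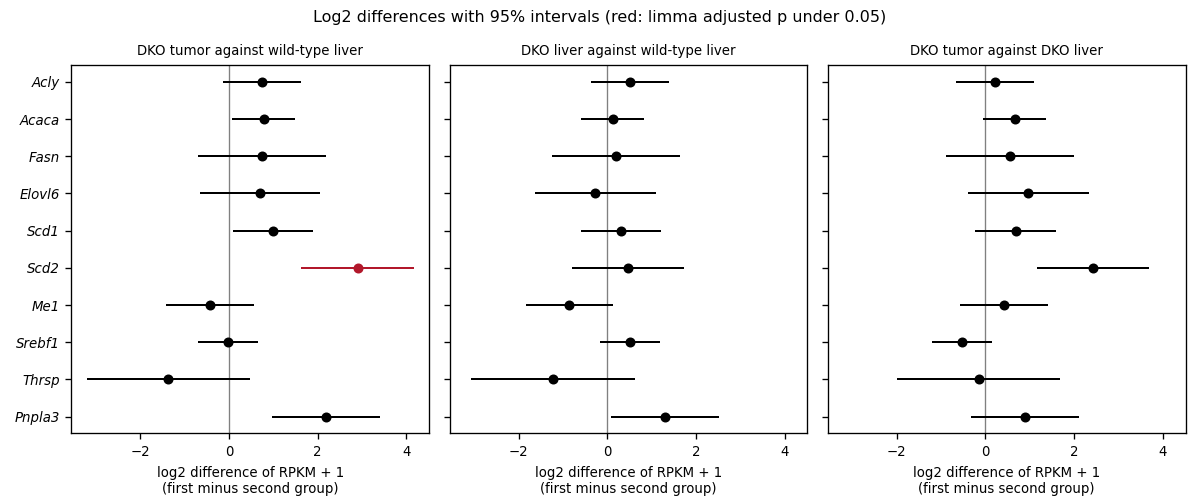
Log2 differences of RPKM + 1 (points) with 95% intervals (lines) for the 10 genes in the 3 comparisons, first group minus second. Scd2 in DKO tumors against wild-type livers, at 2.90, is drawn in red as the 1 member called, and the intervals of Thrsp are the widest.

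As a group, 7 of the 10 genes had positive and 3 negative differences in DKO tumors against wild-type livers, with a median of 0.74, while the median over all tested genes was -0.02 and 47.1% were positive. At an unadjusted p under 0.05, 4 of 10 members passed, against 19.2% of all. For DKO livers against wild-type livers, 7 were positive with a median of 0.26, against 0.08 and 60.4% over all genes. For DKO tumors against DKO livers, 8 were positive with a median of 0.60, against -0.09 and 37.2% over all, and 1 member, Scd2, had an unadjusted p under 0.05, against 16.1% of all. All 10 members kept the sign of their difference within tag L03 for DKO tumors and within tag L02 for DKO livers, each against 2 wild-type livers. The 3 comparisons share libraries pairwise and are not independent of each other. For DKO tumors against DKO livers, a fit of these 8 libraries with the animal as a block called 71 genes and 0 of the 10 members. The same 8 libraries without a block gave 55 called genes, and the fit of 12 libraries gave 1.

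The 10 genes also varied widely between animals of the same group. DKO liver 1 was the lowest of all 12 libraries for 6 genes (Acaca, Fasn, Scd1, Elovl6, Me1 and Thrsp), and wild-type liver 1 for the other 4. Wild-type liver 1 was also the lowest wild-type liver for 10 of 10 genes, DKO liver 1 the lowest DKO liver for 9 and DKO tumor 1 the lowest tumor for 8. At the other end, DKO tumor 4 was the highest of all libraries for 6 genes and DKO liver 4 for 3 (Acly, Srebf1 and Pnpla3). The spread among DKO livers reached 33.3-fold for Pnpla3, 15.4-fold for Thrsp, 12.4-fold for Fasn and 11.0-fold for Elovl6. Replicate numbers tie DKO tumors to DKO livers but not to wild-type livers.

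Genes of the fasted liver were read in the same libraries. Pck1, which encodes the gluconeogenic enzyme PEPCK, was at 169.8, 51.5, 522 and 25.8 RPKM in DKO tumors, 975, 159.9, 607 and 431 RPKM in DKO livers, and 297, 791, 607 and 389.7 RPKM in wild-type livers. DKO liver 1 had the highest Pck1 and DKO tumor 4 the lowest, and wild-type liver 1 had less than the other wild-type livers. The highest and lowest of 12 libraries were also counted over a list of 17 fasting and gluconeogenic genes. DKO tumor 4 was the highest of 12 libraries for 3 of the 17, among them Igfbp1 at 365 RPKM, and the lowest for 3. DKO liver 1 was the highest for 4 of the 17 and wild-type liver 1 for 5, and each was the lowest for 0. DKO liver 4 was the highest for 0 and the lowest for 5, and DKO tumor 1 the highest for 0 and the lowest for 4. Of these 17 genes, 1 was called in DKO tumors against wild-type livers, the binding protein gene Igfbp1 (log2 difference 3.30, limma adjusted p = 0.0178), and 0 in the other comparisons. Of 16 core clock genes tested, 0 were called, with medians of -0.76 in DKO tumors and -0.28 in DKO livers against wild-type livers, and -0.18 in DKO tumors against DKO livers. Arntl, a clock activator chosen after its values were seen, was at 9.24, 10.9, 2.26 and 1.10 RPKM in DKO tumors, 11.2, 9.95, 1.73 and 1.19 RPKM in DKO livers, and 1.60, 0.833, 0.840 and 0.484 RPKM in wild-type livers. It was high in both tissues of DKO animals 1 and 2. In both tissues Thrsp, Fasn and Srebf1 were lower in these animals than in animals 3 and 4. The other members did not share that order, and all of them were higher in DKO tumor 2 than in DKO tumor 3. Dbp, a clock output gene, was at 15.5 ± 16.3 RPKM in DKO tumors, 15.1 ± 13.4 RPKM in DKO livers and 66.7 ± 31.1 RPKM in wild-type livers (n = 4 each). Its differences from wild-type livers were -2.47 (limma adjusted p = 0.106) in DKO tumors and -2.44 (0.295) in DKO livers. Every library of both DKO tissues was below every wild-type liver. For DKO livers, groups without overlap in either direction occurred for 7.58% of tested genes. For DKO tumors the share of genes wholly below is not given here. Tef (-1.02 in DKO tumors and -0.47 in DKO livers) and Bhlhe40 (0.13 and 0.32), clock genes of higher mean level, overlapped with wild-type livers in both. The part of feeding state or time of day in the lipogenic levels was not tested.

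**Figure D4:**
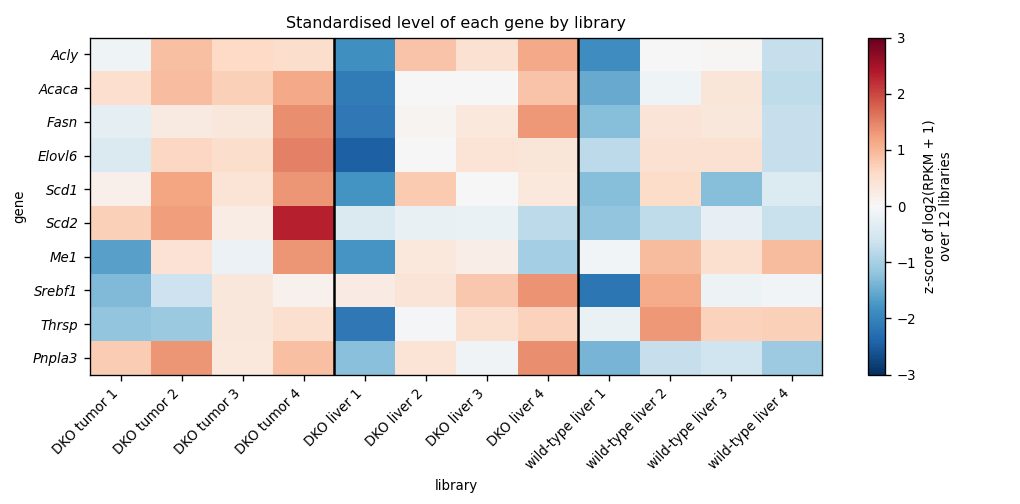
Standardised level (z-score of log2(RPKM + 1) over the 12 libraries) of each of the 10 genes, red for high and blue for low, with lines between DKO tumors, DKO livers and wild-type livers. The columns of DKO liver 1 (mean z-score -1.57) and wild-type liver 1 (-1.17) are mostly blue, and that of DKO tumor 4 (1.11) is mostly red.

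How closely the members ran together was described by the Pearson correlation of each gene with the mean z-score of the other 9 over 12 libraries, which share animals between tumor and liver. It was 0.95 for Fasn, 0.93 for Elovl6, 0.89 for both Acly and Acaca, 0.83 for Scd1 and 0.69 for Pnpla3. It was 0.46 for Scd2 and Thrsp, 0.44 for Me1 and 0.36 for Srebf1. Genes whose pattern was most like the mean of the 10 included Gpam (r = 0.956), Sel1l (0.935), Insig1 (0.923), 2610529C04Rik (0.91), Dnajc1 (0.909), 2410014A08Rik (0.906) and Stch (0.904), over 12 libraries. Gpam encodes the acyltransferase of the first step of triglyceride synthesis, and Insig1 the protein that holds SREBP precursors in the endoplasmic reticulum. Gpam averaged 78.4 RPKM in DKO tumors, 50.2 RPKM in DKO livers and 47.8 RPKM in wild-type livers, with its lowest level of 23.6 RPKM in DKO liver 1 and its highest of 118.5 RPKM in DKO tumor 4. Insig1 averaged 144 RPKM in DKO tumors, 97.7 RPKM in DKO livers and 82.7 RPKM in wild-type livers, with the same libraries lowest and highest.

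Genes around the pathway were counted in 6 lists, and 0 genes of these lists were called in any comparison. The 15 genes of cytosolic acetyl-CoA and NADPH supply had median log2 differences of -0.16 in DKO tumors and -0.02 in DKO livers against wild-type livers, and -0.14 in DKO tumors against DKO livers. Among them Mdh1, the cytosolic malate dehydrogenase, was at 279.5 ± 59.6 RPKM in DKO tumors and 429 ± 45.4 RPKM in wild-type livers (log2 difference -0.63, limma adjusted p = 0.116). Slc25a1, the carrier that exports citrate, was at 108 ± 34.9 RPKM in DKO tumors, 117 ± 28.6 RPKM in DKO livers and 117.5 ± 21.6 RPKM in wild-type livers (n = 4 each).

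Other elongases and desaturases, of which 17 were tested, had medians of 0.13, -0.09 and 0.19 in the same order of comparisons. Fads2, the delta-6 desaturase of polyunsaturated fatty acids, was at 385 ± 204 RPKM in DKO tumors, 281 ± 104 RPKM in DKO livers and 332 ± 109.8 RPKM in wild-type livers, and did not pass in any comparison. The 26 genes of SREBP and LXR control had medians of 0.02, 0.12 and -0.06. The 13 genes of glycolytic feed and ChREBP had medians of -0.02, 0.12 and -0.32, with 2 positive and 11 negative in DKO tumors against DKO livers.

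Triglyceride synthesis and droplet genes, 25 tested, had medians of 0.01, -0.06 and -0.10. Agpat2, an acyltransferase of that route, was at 183 ± 38.3 RPKM in DKO tumors, 250.4 ± 66.4 RPKM in DKO livers and 158 ± 43.1 RPKM in wild-type livers. The 22 cholesterol synthesis genes, targets of SREBP-2, had medians of 0.40 in DKO tumors and -0.51 in DKO livers against wild-type livers, and 0.88 in DKO tumors against DKO livers. Of these 22, 21 were negative in DKO livers against wild-type livers and 21 positive in DKO tumors against DKO livers, where the same DKO livers enter both. Sc5d, a late enzyme of the route, was at 312 ± 108 RPKM in DKO tumors, 164 ± 67.4 RPKM in DKO livers and 222 ± 65.8 RPKM in wild-type livers, with 0.98 for DKO tumors against DKO livers (limma adjusted p = 0.215). The median of the fatty acid synthesis genes was positive in all 3 comparisons, and that of the cholesterol synthesis genes in 2.

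**Figure D5:**
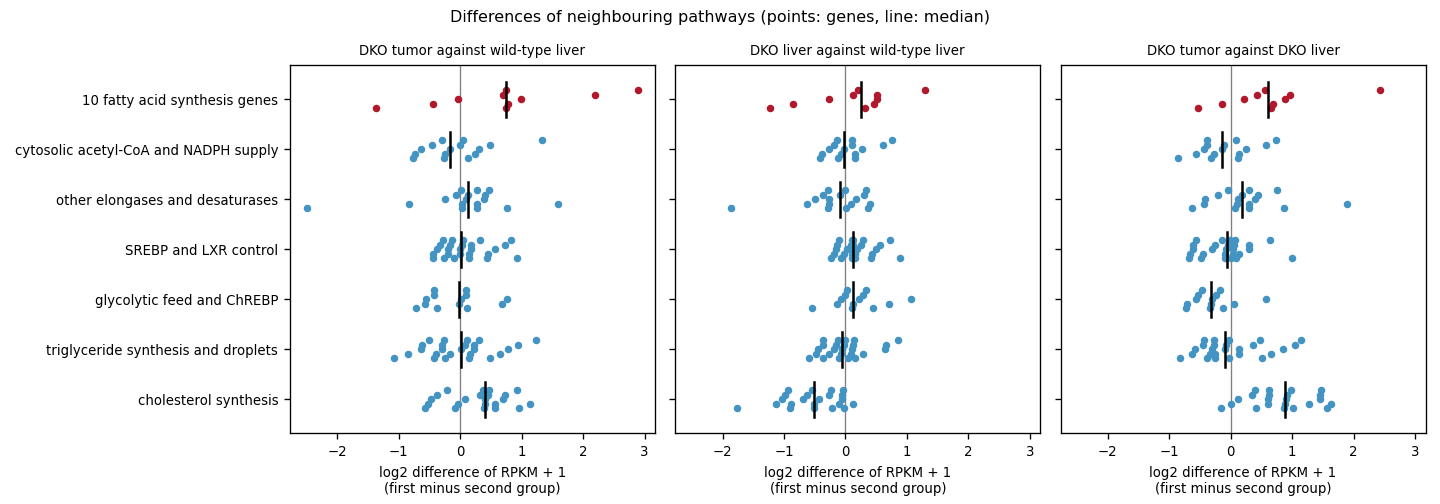
Log2 differences of RPKM + 1 in the 3 comparisons for the 10 fatty acid synthesis genes (red) and 6 lists of genes around the pathway (blue), with 1 point per tested gene and a black line at the median. The medians of the 10 genes are 0.74, 0.26 and 0.60, and those of the cholesterol synthesis genes are 0.40, -0.51 and 0.88.

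Markers of other cells were read beside the lipogenic genes. Adipocytes express the whole pathway, and their 5 markers summed to at most 0.104 RPKM in DKO tumors, 0.25 RPKM in DKO livers and 0.114 RPKM in wild-type livers, with Retn at 0 in all DKO tumors, Adipoq and Lep at 0 in all DKO livers, and Lep, Plin1 (listed as Plin) and Retn at 0 in all wild-type livers. The 6 macrophage markers summed to 31.8 to 169 RPKM in DKO tumors, 133 to 393 RPKM in DKO livers and 69.2 to 204 RPKM in wild-type livers, and 6 of 6 were negative in DKO tumors against DKO livers (median -1.34). The 5 stellate cell markers summed to 40.9 to 195 RPKM in DKO tumors, 69.7 to 264 RPKM in DKO livers and 92.2 to 128 RPKM in wild-type livers, and 5 of 5 were negative in DKO tumors against DKO livers (median -0.63). The 6 endothelial markers summed to 31.2 to 76.7 RPKM in DKO tumors, 65.1 to 96.6 RPKM in DKO livers and 40.5 to 62.4 RPKM in wild-type livers. Cholangiocyte markers summed to 18.7 to 118 RPKM in DKO tumors, 27.2 to 166 RPKM in DKO livers and 25 to 41.9 RPKM in wild-type livers, and lymphocyte markers to at most 12.7 RPKM in any library. Single genes made up most of the cholangiocyte and stellate sums where these were highest. Spp1, of the cholangiocyte list, was at 102.9 RPKM in DKO tumor 3 and 153.8 RPKM in DKO liver 3. Dcn, of the stellate list, was at 169.5 and 223.9 RPKM in the same libraries. These sums therefore describe mainly those genes. Against wild-type livers, the DKO livers had positive differences for 6 of 6 macrophage (median 0.72), 6 of 6 endothelial (0.53), 5 of 5 stellate (0.65) and 4 of 4 tested lymphocyte markers (0.28). So had 3 of 4 tested cholangiocyte markers (0.55) and 60.4% of all tested genes. In DKO tumors against wild-type livers, 1 of 6 macrophage (-0.95), 4 of 6 endothelial (0.33) and 2 of 5 stellate markers (-0.10) were positive. The same held for 4 of 4 tested cholangiocyte markers (0.66), 0 of 4 tested lymphocyte markers (-0.32) and 47.1% of all tested genes. None of the tested markers was called in a comparison, and their part in the lipogenic differences was not tested.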

How the data were processed

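Per the labels' protocols, polyadenylated RNA was enriched from column-purified total RNA and made into SOLiD libraries. The authors deposited 1 table of RPKM per library. Per the submitters' processing notes BWA and the mouse build mm9 were used, and their roles, the counting tool, read length, strand and filters are not given in the sources used here. Whether coordinates count from 0 or 1 is not stated.

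Reads and depth were recovered from the RPKM, since multiplying by exon length gave whole multiples of a library-specific step for 100% of values under 2000 reads (tolerance 0.05 of a read). Depth was 7.985 to 15.956 M reads. The transcript with the longest exons was kept for each symbol. The 11352 genes that reached 0.5 RPKM in 4 or more libraries entered limma 3.58.1 in R 4.3.3 on log2(RPKM + 1), with a mean per group over 12 libraries, intensity trend and robust shrinkage, two-sided, Benjamini-Hochberg at 0.05. Fold changes of low genes are understated by the added 1. The Scd2 share was compared with exact permutation tests. The fit was tested on simulated data.

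The members and the 15 lists (202 entries, 194 matched) were chosen with earlier results of these data known. Named beside the members are list genes that were called or among the 4 highest of a list by mean RPKM, and the 8 genes most like the members. A few genes that these rules name are not reported here. DKO tumors and DKO livers are paired by animal code, and the deviations of the pairs correlated at 0.117, 0.346, 0.367 and 0.003. Alternatives were median-of-ratios scaling, an offset of 0.1, no filter, a replicate block, 8 libraries alone, the tag as covariate, voom on recovered reads, another transcript, each library left out, and, added after seeing the data, fits within 1 tag, without DKO animal 1 and wild-type liver 1, and without DKO animal 4. Python 3.11.15, pandas 2.3.3, scipy 1.17.1 and matplotlib 3.10.9 were used.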

Additional observations from a re-analysis of the deposited data

How the results depend on the processing

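Of 680 member values under other settings, 640 kept direction and side of the threshold, 23 turned sign, 10 lost and 7 gained a call, and the causes were not tested. Against wild-type livers, the tag as a covariate and the fit within 1 tag give the same difference by design. They are therefore not separate checks of it. Genes called in DKO tumors against wild-type livers numbered 216 as reported, 615 with median-of-ratios scaling, 112 with no filter, 128 with a replicate block, 3 with the tag as a covariate, 303 with the 8 libraries alone, 238 with the offset of 0.1, 25 within tag L03, 16 without DKO animal 1 and wild-type liver 1, 284 without DKO animal 4, and 16 to 413 when 1 library was left out. Members called there numbered 1 as reported, 2 with median-of-ratios scaling (Scd2 and Pnpla3), 0 with the tag as a covariate, within tag L03 and without DKO animal 1 and wild-type liver 1, 2 without DKO animal 4, and 0 to 2 when 1 library was left out. For DKO livers against wild-type livers 1 gene was called with median-of-ratios scaling, with the 8 libraries alone and without DKO animal 1 and wild-type liver 1, 3 without DKO animal 4, and 0 to 2 when 1 library was left out. For DKO tumors against DKO livers 71 genes were called with the replicate block, 55 with the 8 libraries alone, 0 with the tag as a covariate, 2 without DKO animal 1 and wild-type liver 1, and 1 to 363 when 1 library was left out, with 0 to 1 members.

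Wild-type livers share only a number with the DKO libraries. With that number as a replicate block, Scd2 in DKO tumors against wild-type livers had adjusted p = 0.0886 and Pnpla3 0.0157. Scd2 was also not called with the 8 libraries alone (adjusted p = 0.068) or without DKO animal 1 and wild-type liver 1 (0.207). In DKO tumors against DKO livers the block by animal changed no member's call (Scd2 adjusted p = 0.142). Signs that turned were all of differences that did not pass. Against wild-type livers in DKO tumors, Srebf1 was 0.0 with median-of-ratios scaling and -0.33 to 0.21 when 1 library was left out. Against wild-type livers in DKO livers, Acaca and Fasn were -0.11 and -0.28 without DKO animal 4, Elovl6 was 0.19 without DKO animal 1 and wild-type liver 1, and leaving out 1 library gave -0.11 to 0.47 for Acaca, -0.28 to 0.89 for Fasn and -0.54 to 0.41 for Elovl6. In DKO tumors against DKO livers, Acly was -0.19 with the tag as a covariate and -0.09 without DKO animal 1 and wild-type liver 1, and Me1 was -0.03 without DKO animal 4. With the tag as a covariate, the tag effect in this comparison came from the wild-type livers alone. Leaving out 1 library gave -0.23 to 0.43 for Acly, -0.14 to 1.03 for Fasn and -1.02 to 0.28 for Thrsp. The Scd2 share in DKO livers against wild-type livers differed by -0.155 to 0.439 percentage points when 1 library was left out. Depth limits Pnpla3 most, with 9 reads in wild-type liver 1.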

Other observations

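Several lipid genes outside the 10 stood apart in single libraries and were chosen after their values were seen. Elovl7, an elongase of long-chain fatty acids, was at 3.25, 10.7, 4.25 and 5.93 RPKM in DKO tumors, 0.405, 0.488, 2.11 and 0.475 RPKM in DKO livers, and 0.245, 0.459, 3.01 and 1.93 RPKM in wild-type livers. Every tumor was above every liver. All tumors lay above all wild-type livers for 5.57% of tested genes, and above all DKO livers for 2.12%. The Elovl7 differences did not pass (1.60 against wild-type livers, limma adjusted p = 0.0675, and 1.89 against DKO livers, 0.0802). Elovl3, an elongase with a strong daily rhythm in mouse liver, was at 1.60, 2.56, 3.13 and 1.88 RPKM in DKO tumors, 1.63, 35.6, 2.20 and 1.03 RPKM in DKO livers, and 31.9, 8.23, 10.3 and 31.9 RPKM in wild-type livers. Elovl3 differed by -2.50 in DKO tumors against wild-type livers (limma adjusted p = 0.111), and DKO liver 2 was the highest of all libraries.

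DKO tumor 4, which had the highest Scd2, also held the highest levels of Acacb, the mitochondrial acetyl-CoA carboxylase, at 26.9 RPKM, and of the adipogenic regulator gene Pparg, at 24.2 RPKM. The other tumors were at 4.0 to 6.79 RPKM for Acacb and 1.99 to 5.95 RPKM for Pparg. Among the livers, Acacb was highest in DKO liver 4, of the same animal, at 13.67 RPKM, and Pparg in DKO liver 3 at 10.04 RPKM.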
